A study of Homo sapiens with 4 samples.

Results

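The IL6 family cytokines and receptors described here are 10 genes chosen by symbol in the table of gene counts, out of 57820 rows in all. They comprise the ligand genes IL6, IL11, LIF and CLCF1, the receptor genes IL6R, IL6ST, LIFR and OSMR, the transcription factor gene STAT3 and the feedback inhibitor gene SOCS3. Each symbol was carried by 1 row, and 9 of the 10 passed the filter on low counts and were tested. The cells were U87, an established line from a human glioma, and carried a short hairpin RNA against GLUD1 (shGlud1, 2 libraries) or a control hairpin (shNT, 2 libraries). GLUD1 encodes the mitochondrial glutamate dehydrogenase. All 4 libraries came from cells held in low glucose for 6 h after growth in medium with 10% bovine calf serum, so there was no library from full glucose. The labels give 1 hairpin label per group and do not tell whether the libraries within a group stem from different cultures. P-values therefore weigh changes against a spread between libraries that may be technical only.

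Cytokines of this family signal through receptors that share the chain gp130, the product of IL6ST. IL6 and IL11 first bind their own receptor chains, IL6R and IL11RA, whereas LIF pairs gp130 with LIFR and oncostatin M pairs it with OSMR or LIFR. The assembled receptor activates JAK kinases, which phosphorylate STAT3, and STAT3 induces SOCS3, which in turn blocks gp130 signalling. Glioma cells are known both to secrete and to respond to IL6 and LIF.

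The libraries held 17407149 and 18537314 expected counts in shGlud1 and 16546849 and 18118503 in shNT. The targeted gene, GLUD1, stood at 34.0 and 44.5 CPM (a library's counts scaled to a common depth with TMM factors) in the shGlud1 libraries, against 78.1 and 76.5 CPM in the shNT libraries (-0.98 on the log2 scale with an SE of 0.13, adjusted p = 1.26e-12 by the quasi-likelihood test of edgeR). Of 14616 genes tested, 61.0% passed an adjusted p of 0.05, 31.9% as higher and 29.1% as lower in shGlud1, and their median log2 fold change was 0.06. Scaled by total counts alone the median of all genes was 0.57, and 7592 genes were called higher and 2000 lower, against 4662 and 4257 with TMM factors. Change also followed transcript length: in 4 length classes of like size the median log2 fold change was -0.56, -0.12, 0.27 and 0.58 from the shortest to the longest. A length correction and the total-count scale are therefore given beside the members whose call or direction depended on them. Among markers of other cell types, the summed myeloid list of 8 genes stood at 297 and 283 CPM in shGlud1 and at 410 and 368 CPM in shNT, nearly all of it CD68, which was itself called lower (-0.42, adjusted p = 0.00644, edgeR). PTPRC, a marker of leukocytes in general, had 0 and 1 counts in shGlud1 and 1 and 0 in shNT, AIF1 and TYROBP had 0 in all 4 libraries, and the 7 lymphoid markers summed to at most 0.85 CPM. CD14, a receptor gene of monocytes, had 1 and 12 counts in shGlud1 and 39 and 42 in shNT, and was called lower (-3.20, adjusted p = 4.75e-09, edgeR). CSF1R, also on the myeloid list, was present in all libraries, at 6.15 and 7.20 CPM in shGlud1 and 8.42 and 7.45 CPM in shNT. It was not called (-0.25, adjusted p = 0.340, edgeR). The 6 neuron markers summed to 23.1 and 21.3 CPM in shGlud1 and to 37.6 and 34.4 CPM in shNT. Of these GAD1 was lower (-1.11, adjusted p = 1.46e-11) and RBFOX3, at under 1 CPM in all libraries, was higher (1.80, adjusted p = 0.0192). Endothelial markers summed to 2.00 and 1.43 CPM in shGlud1 and to 1.17 and 0.915 CPM in shNT. The 8 markers of glioma and astroglial cells summed to 5210 and 5738 CPM in shGlud1 and to 3157 and 3012 CPM in shNT, most of it VIM. VIM (0.99, adjusted p = 5.19e-08) and NES (1.93, adjusted p = 3.74e-26) were higher in shGlud1, CD44 did not pass (0.09, adjusted p = 0.637), while SOX2 and AQP4 had 0 counts in all libraries and GFAP at most 6. The part of these markers in the results below was not tested.

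With TMM factors, knockdown cells had less mRNA for 3 of the 4 ligands and for the IL6 receptor chain, and more for STAT3. IL6 was 4.81-fold lower, IL11 3.49-fold lower, CLCF1 1.79-fold lower and IL6R 1.64-fold lower in shGlud1, and STAT3 was 1.73-fold higher. Under total counts the log2 fold changes of CLCF1 (-0.32) and IL6R (-0.19) were not called. LIF, IL6ST, LIFR and SOCS3 did not pass the test, and OSMR was too low to be tested. The counts of 4 members lower and 1 higher of the 9 tested stand against 29.1% and 31.9% of all genes tested. The CPM ranges of the groups did not overlap for 7 of the 9, against 81.0% of all genes tested. The median log2 fold change of the 9 was -0.30. With so many genes changed, these counts say little about the family. As to size, 1.46% of tested genes had a lower log2 fold change than IL6 and 3.02% a lower one than IL11. In bulk RNA, fewer cells making a transcript and less transcript per cell cannot be told apart.

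**Figure D1:**
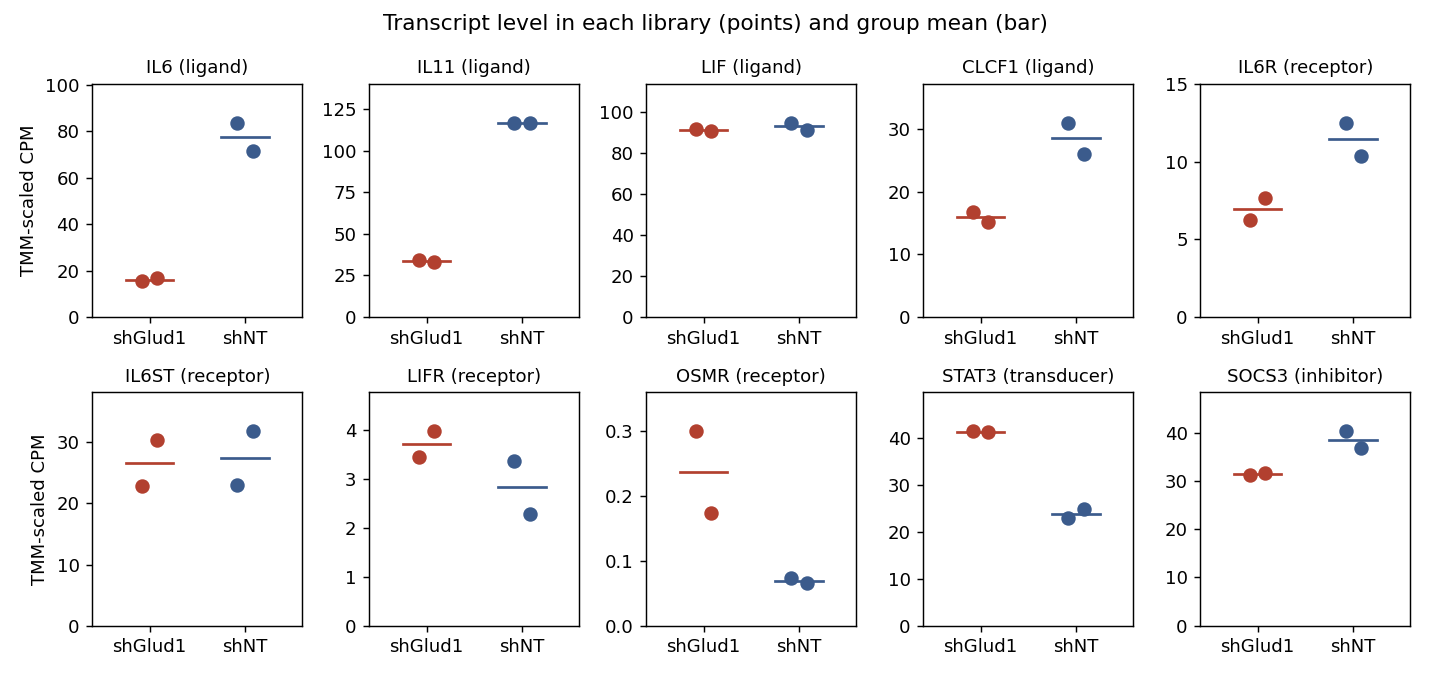
Level of each of the 10 genes in TMM-scaled CPM on a linear axis from 0, with a point for each library and a bar for the group mean (2 libraries each, shGlud1 left, shNT right). IL6, IL11, CLCF1 and IL6R sit lower in both shGlud1 libraries, STAT3 sits higher, and LIF and IL6ST overlap between the groups.

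IL6 (ENSG00000136244, GRCh38 chromosome 7, 22725884 to 22732002) encodes the founding cytokine of the family, an inducer of the acute phase response. Its expected counts were 307 and 389 in the shGlud1 libraries and 1144 and 1092 in the shNT libraries, that is 15.3 and 16.9 CPM in shGlud1 against 83.8 and 71.4 CPM in shNT. Both knockdown libraries lay far below both controls, and the gap was larger than the spread within either group. The means were 16.1 ± 1.10 CPM in shGlud1 and 77.6 ± 8.82 CPM in shNT (SD, n = 2 each), with a log2 fold change of -2.26 (SE 0.14, adjusted p = 4.74e-55, edgeR). The value ran from -2.38 to -1.74 over 13 alternative analyses, and all 13 called IL6 lower. IL6 has a short transcript (1.53 kb), and genes of the shortest class had a median of -0.56. With the length trend removed IL6 was -1.80. On the opposite strand IL6 exons share 46 bases with STEAP1B and 428 with an antisense transcript, and the libraries did not mark strand. STEAP1B had more counts in shGlud1 (200 and 271) than in shNT (87.5 and 113), and the antisense gene had at most 5 counts in any library. How reads over the shared bases were assigned is not known, and their part in the IL6 change was not tested.

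IL11 (ENSG00000095752, chromosome 19, 55364389 to 55370463) encodes a cytokine of stromal and epithelial tissues. It was at 34.1 and 32.9 CPM in shGlud1 and at 117 and 117 CPM in shNT. The libraries of each group nearly coincided, and the groups were far apart. The means were 33.5 ± 0.84 CPM in shGlud1 and 117 ± 0.05 CPM in shNT (SD, n = 2 each), with a log2 fold change of -1.80 (SE 0.13, adjusted p = 5.32e-39, edgeR). The value lay between -1.86 and -1.28 over the same 13 alternatives, each of which called IL11 lower.

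LIF (ENSG00000128342, chromosome 22, 30240447 to 30246851) encodes leukaemia inhibitory factor, which keeps mouse embryonic stem cells from differentiating. It was at 91.6 and 90.7 CPM in shGlud1 and at 94.6 and 91.0 CPM in shNT. The 4 values lay within a few CPM of each other and the groups overlapped. The log2 fold change was -0.03 with a 95% interval from -0.28 to 0.23 (adjusted p = 0.872, edgeR), which leaves out a fall of the size seen for IL6 or IL11. Under total counts LIF was called higher, at 0.49 (adjusted p = 0.000143), where the median of all genes was 0.57.

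CLCF1 (ENSG00000175505, chromosome 11, 67364168 to 67374177) encodes cardiotrophin-like cytokine factor, which acts through CNTFR, LIFR and gp130. It was at 16.7 and 15.2 CPM in shGlud1 and at 31.1 and 26.0 CPM in shNT. The groups did not overlap, and the shNT libraries differed from each other by more than the shGlud1 libraries did. Its log2 fold change came to -0.84 (SE 0.16, adjusted p = 3.83e-07, edgeR), and it was -0.32 under total counts and no longer called (adjusted p = 0.102). CLCF1 shares 61 exonic bases on the same strand with an overlapping protein-coding gene, AP003419.1. That gene had 327 and 77.7 expected counts in shGlud1 and 410 and 447 in shNT, so how shared reads were divided could change the CLCF1 counts.

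Ratios of ligands within a library do not depend on the scaling factors, although they do depend on the length trend. Per kilobase of the longest annotated transcript, IL6 stood at 0.435 and 0.484 times LIF in the shGlud1 libraries and at 2.30 and 2.04 times LIF in the shNT libraries. The IL11 to LIF ratio was 0.649 and 0.632 in shGlud1 and 2.15 and 2.24 in shNT. For CLCF1 to LIF it was 0.394 and 0.360 in shGlud1 and 0.706 and 0.615 in shNT. LIF was therefore the ligand with the highest level per kilobase in both knockdown libraries, and IL6 and IL11 were above it in both controls. The log2 fold change of IL6 differed from that of LIF by -2.24 with TMM factors and by -1.57 with the length trend removed. For IL11 these differences were -1.78 and -1.34, and for CLCF1 -0.81 and -0.24.

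The IL6 and IL11 genes fell together and STAT3 rose, so the 250 bases before their RefSeq start sites are shown (GRCh38.p14, gene strand, 5′ to 3′). IL6 lies on the plus strand at chr7:22726950-22727199, IL11 on the minus strand at chr19:55370464-55370713 and STAT3 on the minus strand at chr17:42388443-42388692. Capitals mark matches, on either strand, to letters used for NF-kB (GGANTTTCC), AP-1 (TGANTCA), C/EBP (TTGCNNAA), STAT (TTCNNNGAA), the CRE core (TGACG) and a TATA box (TATAA), where N is any base. These letters were picked after the IL6 sequence had been seen, so a match in it is no independent observation.
IL6: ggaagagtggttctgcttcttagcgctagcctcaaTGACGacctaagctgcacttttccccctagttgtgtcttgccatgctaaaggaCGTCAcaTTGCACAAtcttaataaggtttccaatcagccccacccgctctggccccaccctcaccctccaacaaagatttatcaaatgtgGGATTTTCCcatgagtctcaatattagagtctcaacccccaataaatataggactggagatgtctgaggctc
IL11: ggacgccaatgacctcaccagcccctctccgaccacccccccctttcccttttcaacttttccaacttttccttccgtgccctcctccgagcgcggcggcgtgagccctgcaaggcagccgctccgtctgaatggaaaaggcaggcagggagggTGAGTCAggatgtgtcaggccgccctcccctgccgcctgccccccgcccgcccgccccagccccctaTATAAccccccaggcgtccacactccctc
STAT3: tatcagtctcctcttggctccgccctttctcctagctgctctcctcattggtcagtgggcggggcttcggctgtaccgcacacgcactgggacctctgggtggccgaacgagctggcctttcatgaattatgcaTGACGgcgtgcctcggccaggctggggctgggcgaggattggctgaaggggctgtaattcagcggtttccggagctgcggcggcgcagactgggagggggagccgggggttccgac

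The IL6 stretch held the NF-kB letters at -72 to -64 from the start site, as 1.45% of the 35116 human promoters in the RefSeq table did. It also held the C/EBP letters at -155 to -148 (9.05% of promoters) and the CRE core at -215 and, reversed, at -162 (21.2%). The IL11 stretch held none of these 3 and had the AP-1 letters at -96 to -90 (6.57%) and TATAA at -29 to -25 (18.9%). The STAT3 stretch held the CRE core alone, at -116. The sequences of IL6 and IL11 thus shared no match of the 6 patterns in these windows. The table held sequences for 8 of the 10 genes, with 3 start sites for LIFR and 2 for SOCS3. Of the others, the STAT letters (6.57% of promoters) lay before 2 of the LIFR start sites, the C/EBP letters before 1 of these and before OSMR, TATAA before 1 of the LIFR start sites, and none of the 6 patterns lay in the IL6R, IL6ST or SOCS3 windows. A match is a run of letters and was not tested as a binding site.

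IL6R (ENSG00000160712, chromosome 1, 154405193 to 154469450), the chain that binds IL6 itself, was at 6.25 and 7.64 CPM in shGlud1 and at 12.5 and 10.4 CPM in shNT. Both knockdown libraries lay below both controls, at low levels. Its log2 fold change came to -0.72 (SE 0.21, adjusted p = 0.00137, edgeR). IL6R lost its call without shNT replicate 1 (-0.58, adjusted p = 0.0728) and under total counts (-0.19, adjusted p = 0.476), and with the length trend removed it was -1.19. It is a long transcript (5.91 kb) that fell, while the class of the longest genes rose by a median of 0.58.

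IL6ST (ENSG00000134352, chromosome 5, 55935095 to 55994993), which encodes the shared chain gp130, was at 22.9 and 30.3 CPM in shGlud1 and at 23.1 and 31.8 CPM in shNT. The groups overlapped almost wholly, and the replicates of each group lay further apart than the groups did. The log2 fold change was -0.05 with a 95% interval from -0.33 to 0.24 (adjusted p = 0.803, edgeR). The direction of IL6ST depended on the scaling: it was called higher under total counts (0.48, adjusted p = 0.0133) and lower with the length trend removed (-0.69, adjusted p = 6.19e-06), its longest transcript being 9.06 kb.

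LIFR (ENSG00000113594, chromosome 5, 38474963 to 38608354), the chain that LIF and CLCF1 share, was at 3.45 and 3.97 CPM in shGlud1 and at 3.37 and 2.29 CPM in shNT. The groups came close to touching. The log2 fold change was 0.40 with a 95% interval from -0.20 to 0.99 (adjusted p = 0.2499, edgeR), so neither a clear rise nor a small fall can be told apart from no change at this depth. It was called higher under total counts (0.92, adjusted p = 0.00876) and was -0.26 with the length trend removed (adjusted p = 0.453). LIFR exons share 629 bases with LIFR-AS1 on the opposite strand. LIFR-AS1 had 12 and 20.5 counts in shGlud1 and 11 and 12 in shNT, where LIFR had 69 and 91.5, and 46 and 35. How reads over the shared bases were divided is not known.

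OSMR (ENSG00000145623, chromosome 5, 38845858 to 38945596), which pairs with gp130 for oncostatin M, had 6 and 4 counts in shGlud1 and 1 and 1 in shNT. These levels of 0.30 and 0.17 CPM in shGlud1 and 0.07 and 0.07 CPM in shNT were below the filter. The program and annotation behind the counts are not given, so whether counting lost OSMR reads cannot be told here. The ratio of the summed counts, 10 against 2, was 3.36 on the TMM scale, with an exact 95% counting interval from 0.717 to 31.6. OSMR exons share 229 bases with RICTOR on the opposite strand, whose counts were 67 and 110 in shGlud1 and 76 and 75 in shNT, so even these few reads cannot be assigned with certainty.

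Downstream of the receptors, STAT3 (ENSG00000168610, chromosome 17, 42313324 to 42388568), the main transcription factor of the pathway, was at 41.5 and 41.3 CPM in shGlud1 and at 22.9 and 24.9 CPM in shNT. The knockdown libraries nearly coincided, and both lay well above the controls. The means were 41.4 ± 0.15 CPM in shGlud1 and 23.9 ± 1.39 CPM in shNT (SD, n = 2 each), with a log2 fold change of 0.79 (SE 0.14, adjusted p = 1.46e-07, edgeR). STAT3 was called higher in all 13 alternatives, from 0.43 with the length trend removed (adjusted p = 0.00465) to 1.31 under total counts. Genes of its length class (5.05 kb for STAT3) had a median of 0.27.

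SOCS3 (ENSG00000184557, chromosome 17, 78356778 to 78360077), a target of STAT3 and a brake on gp130, was at 31.2 and 31.6 CPM in shGlud1 and at 40.3 and 36.9 CPM in shNT. Both knockdown values were below both controls by a small margin. Its log2 fold change came to -0.30 (SE 0.14, adjusted p = 0.0537, edgeR), just outside the threshold, and SOCS3 was called lower with RLE factors (-0.35, adjusted p = 0.0218) and with a filter of 1 CPM (-0.31, adjusted p = 0.0424). Under total counts the value was 0.22 (adjusted p = 0.180). Per kilobase, STAT3 was at 0.721 and 0.708 times SOCS3 in shGlud1 and at 0.308 and 0.366 times SOCS3 in shNT.

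**Figure D2:**
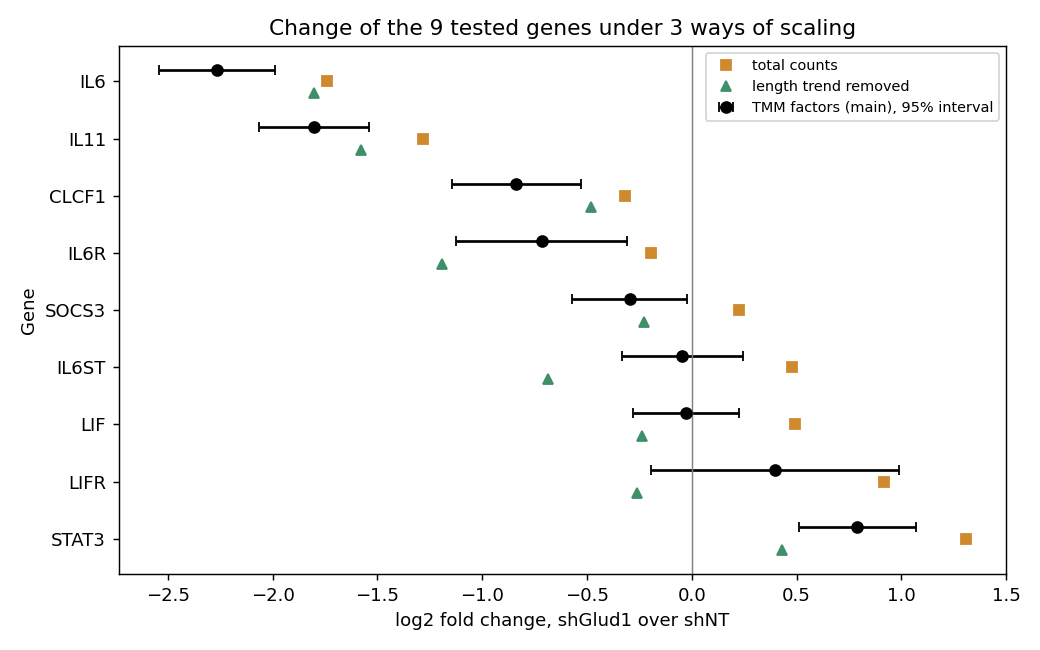
Log2 fold change of the 9 tested genes, shGlud1 over shNT, with TMM factors (circles, bars for the 95% interval), under total counts (squares) and with the length trend removed (triangles). IL6, IL11, CLCF1 and IL6R lie below 0 and STAT3 above 0 in all 3, whereas SOCS3, IL6ST, LIF and LIFR fall on different sides of 0.

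The order of levels per kilobase of longest transcript differed between the groups. In shGlud1 it ran LIF (22.96 CPM per kb), IL11 (14.7), SOCS3 (11.5), IL6 (10.5), CLCF1 (8.66), STAT3 (8.20), IL6ST (2.94), IL6R (1.17), LIFR (0.368) and OSMR (0.0427). No neighbours in that order overlapped between their libraries, although CLCF1 and STAT3 were close. In shNT it ran IL11 (51.2 CPM per kb), IL6 (50.8), LIF (23.4), CLCF1 (15.5), SOCS3 (14.1), STAT3 (4.74), IL6ST (3.03), IL6R (1.94), LIFR (0.280) and OSMR (0.0125). There IL11 and IL6 could not be ordered, nor could CLCF1 and SOCS3, since their library values overlapped. Per kilobase, the ligand and SOCS3 transcripts stood above the 4 receptor chains among the 10 genes in both groups. Of these 4 chains IL6ST, which encodes gp130, was the highest. IL11RA, which is not among the 10 genes, stood above IL6ST, at 4.21 CPM per kb in shGlud1 and 8.94 in shNT.

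**Figure D3:**
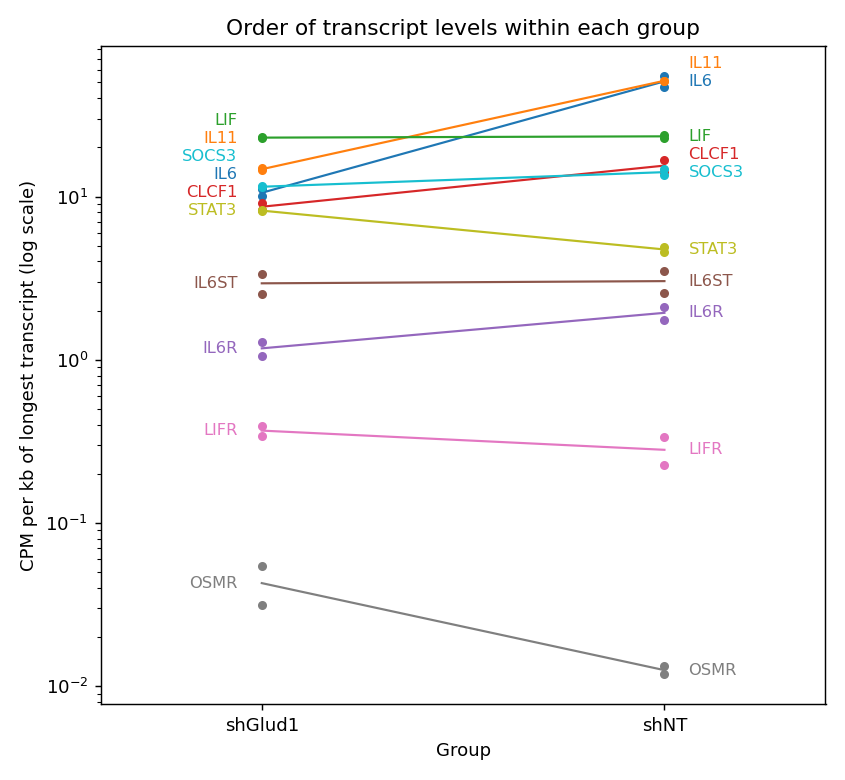
Level per kilobase of longest transcript on a log axis, with points for libraries and lines joining the group means, shGlud1 left and shNT right. IL6 and IL11 share the top in shNT, and LIF stands alone at the top in shGlud1.

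The 5 tested genes nearest to IL6 in centred log2 CPM over the 4 libraries, when those averaging under 5 CPM were left out, were MSC, SERPINH1, LTF, AQP1 and SESN2. Their root mean square distance from IL6 was 0.0591 to 0.104 log2 units. With 2 groups of 2 libraries, this likeness says little beyond a similar fold: their log2 fold changes ran from -2.37 for AQP1 to -2.24 for SESN2.

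The rest of the pathway was read from 7 lists of 65 genes in all. Of the 55 tested, 27 rose and 15 fell, a share called of 76.4% against 61.0% of all genes tested, with a median log2 fold change of 0.26 against 0.06. Under total counts 40 were called, where 65.6% of all genes were (51.9% higher and 13.7% lower). With the length trend removed 41 were called, where 55.7% of all genes were (26.9% higher and 28.8% lower).

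Among the 8 other ligand genes of the family, 3 passed the filter. CTF1, the cardiotrophin gene, rose to 8.85 and 6.12 CPM in shGlud1, against 5.05 and 4.12 CPM in shNT (0.70, adjusted p = 0.00710, edgeR), and lost that call without shGlud1 replicate 1 (0.40, adjusted p = 0.211), without shNT replicate 2 (0.56, adjusted p = 0.130) and with DESeq2 (0.69, adjusted p = 0.108). OSM, the ligand of OSMR, had 0 and 2 counts in shGlud1 and 13 and 5 in shNT and was not tested.

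Of the 4 other receptor chains, 2 were tested, 1 fell and 1 rose, against 29.1% lower and 31.9% higher among all genes. IL11RA, the receptor chain of IL11, fell with its ligand, to 14.2 and 11.1 CPM in shGlud1, against 25.9 and 27.9 CPM in shNT (-1.09, SE 0.16, adjusted p = 1.92e-10, edgeR). Per kilobase IL11 still stood at 3.17 and 3.91 times IL11RA in shGlud1 and at 5.96 and 5.52 times IL11RA in shNT. IL31RA, which pairs with OSMR to bind IL31, rose to 7.75 and 8.77 CPM in shGlud1, against 4.03 and 4.38 CPM in shNT (0.97, SE 0.24, adjusted p = 0.000148). CNTFR, a receptor chain for CLCF1, had 0 counts in all 4 libraries, which allows up to 0.130 to 0.150 CPM in shGlud1 and 0.196 to 0.220 CPM in shNT by a limit of 3 counts per library.

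Of 10 kinases, STATs and adaptors that carry the signal 4 rose, 1 fell and 5 did not pass (median 0.25). Among all genes 31.9% were higher and 29.1% lower. JAK1, the kinase most closely tied to gp130, rose to 52.8 and 57.6 CPM in shGlud1, against 20.8 and 25.7 CPM in shNT (1.24, SE 0.14, adjusted p = 1.48e-17, edgeR). JAK2 rose as well, at lower levels (1.21, adjusted p = 0.000211). PTPN11, which encodes the phosphatase SHP2 that couples gp130 to the MAPK pathway, rose to 48.1 and 58.2 CPM in shGlud1, against 16.2 and 18.0 CPM in shNT (1.64, adjusted p = 1.41e-27). STAT5A was the member that fell, to 10.8 and 9.53 CPM in shGlud1, against 22.6 and 20.5 CPM in shNT (-1.08, adjusted p = 4.26e-09). After the length correction 4 of the 10 were higher and 3 lower, against 26.9% and 28.8% of all genes, so these counts are near the background. Under total counts 8 were higher and 1 lower, against 51.9% and 13.7% of all genes.

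Among 7 inhibitors of the signal 4 rose and 1 fell (median 0.89), against 31.9% and 29.1% of all genes. PIAS3, which binds and inhibits STAT3, rose to 24.9 and 23.1 CPM in shGlud1, against 12.7 and 11.1 CPM in shNT (1.01, adjusted p = 1.34e-08, edgeR). PIAS1 (2.28, adjusted p = 1.56e-11) and the phosphatase gene PTPN1 (1.02, adjusted p = 8.60e-13) rose with it, and PIAS1 was 1.67 after the length correction. PIAS1 was low, at 6.15 and 5.38 CPM in shGlud1 and 1.47 and 0.915 CPM in shNT. SOCS1 was at 2.25 and 2.78 CPM in shGlud1 and at 3.44 and 4.71 CPM in shNT (-0.70, adjusted p = 0.0359). CISH was at 2.00 and 2.65 CPM in shGlud1 and at 1.61 and 0.915 CPM in shNT (0.89, adjusted p = 0.0462). Both are low, and both lost their calls with DESeq2, without shNT replicate 2 (SOCS1 -0.45, CISH 0.53) and without shGlud1 replicate 1 (SOCS1 -0.57, CISH 1.06). CISH also lost its call without shGlud1 replicate 2 (0.68, adjusted p = 0.313), and SOCS1 under total counts (-0.18, adjusted p = 0.643). The length correction also ended both calls (SOCS1 -0.32, adjusted p = 0.353, CISH 0.53, adjusted p = 0.253), as did testing with no filter on low counts (adjusted p = 0.0831 and 0.0518), and CISH was not called with RLE factors (adjusted p = 0.0635). After the length correction 3 inhibitors were higher and 2 lower, against 26.9% and 28.8% of all genes. Under total counts 4 were higher and 0 lower, against 51.9% and 13.7%. With so few genes these counts say little about the inhibitors as a set. The genes of the proteases that release soluble IL6R from the cell surface both rose, where 31.9% of all genes were higher. Both were also called higher under total counts and after the length correction, where 51.9% and 26.9% of all genes were. ADAM17 was at 15.95 and 20.4 CPM in shGlud1 and at 7.43 and 8.54 CPM in shNT (1.19, adjusted p = 2.11e-09), and ADAM10 at 28.3 and 38.1 CPM in shGlud1 and at 15.1 and 15.2 CPM in shNT (1.14, adjusted p = 1.99e-12). Both are long transcripts, and after the length correction ADAM10 was 0.46 (adjusted p = 0.00528) and ADAM17 0.65 (adjusted p = 0.000661).

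Of 10 genes that control IL6 transcription or the stability of its mRNA, 5 were higher and 4 lower (median -0.01). The shares among all genes were 31.9% and 29.1%. Under total counts 5 were higher and 1 lower, against 51.9% and 13.7% of all genes. With the length trend removed 3 were higher and 3 lower, against 26.9% and 28.8%, so the counts changed with the scaling. ARID5A, whose product protects IL6 mRNA from decay, fell to 20.8 and 19.2 CPM in shGlud1, against 34.6 and 40.6 CPM in shNT (-0.91, SE 0.15, adjusted p = 2.42e-09, edgeR). ZFP36, which encodes tristetraprolin, a decay factor of mRNAs rich in AU elements, fell by 0.92 on the log2 scale (adjusted p = 2.53e-06), and lost that call under total counts (-0.40, adjusted p = 0.0820). Its relative ZFP36L1 rose to 70.9 and 73.8 CPM in shGlud1, against 24.98 and 25.7 CPM in shNT (1.51, adjusted p = 2.00e-26). The C/EBP genes CEBPB (-0.42, adjusted p = 0.00262) and CEBPD (-0.50, adjusted p = 0.0261) fell modestly with TMM factors. Both changed sign under total counts (0.10 and 0.018) and were not called with the length trend removed (-0.10 and -0.25). Neither was called without shNT replicate 2 (-0.40 and -0.48), and CEBPD was not called without shNT replicate 1 (-0.53) or with DESeq2 (-0.52). ELAVL1, which encodes the stabilising protein HuR, rose by 0.78 (adjusted p = 5.02e-08), but by 0.30 after the length correction (adjusted p = 0.0469). ZFP36L2 (0.40) and RC3H1 (0.98), which encodes the decay factor roquin, also passed, with adjusted p of 0.0233 and 0.00837 in edgeR. With DESeq2 and after the length correction neither was called. RC3H1 was not called without shGlud1 replicate 1 (0.90) or shNT replicate 1 (0.62), and ZFP36L2 was not called without shGlud1 replicate 1 (0.30), shNT replicate 1 (0.34) or shNT replicate 2 (0.46).

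Known STAT3 target genes did not move in 1 direction. Of 26 listed, 23 were tested, and 10 rose and 9 fell, against 31.9% and 29.1% of all genes. Their median log2 fold change was -0.21. HIF1A rose to 107 and 127 CPM in shGlud1, against 29.7 and 31.5 CPM in shNT (1.93, SE 0.14, adjusted p = 4.06e-43, edgeR). The cyclin gene CCND1 (1.35), the survival gene MCL1 (1.07) and the AP-1 gene FOSL1 (1.12) also rose, with adjusted p of 1.12e-13 or lower. FOS, another AP-1 gene, fell to 0.50 and 0.998 CPM in shGlud1, against 52.5 and 45.6 CPM in shNT (-5.99, SE 0.22, adjusted p = 7.59e-154). SERPINA3, an acute phase gene, had 3 and 2 counts in shGlud1 and 21 and 25 in shNT, so the size of its fall (-3.69, SE 0.69) is uncertain. MYC (-0.94, adjusted p = 6.03e-09) and VEGFA (-0.76, adjusted p = 4.64e-08) fell, and VEGFA was not called under total counts (-0.24, adjusted p = 0.0539) and was -1.45 after the length correction. Under total counts 12 of the 23 were higher and 3 lower, against 51.9% and 13.7% of all genes, so there the counts were near the background. After the length correction 11 were higher and 6 lower, against 26.9% and 28.8% of all genes.

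**Figure D4:**
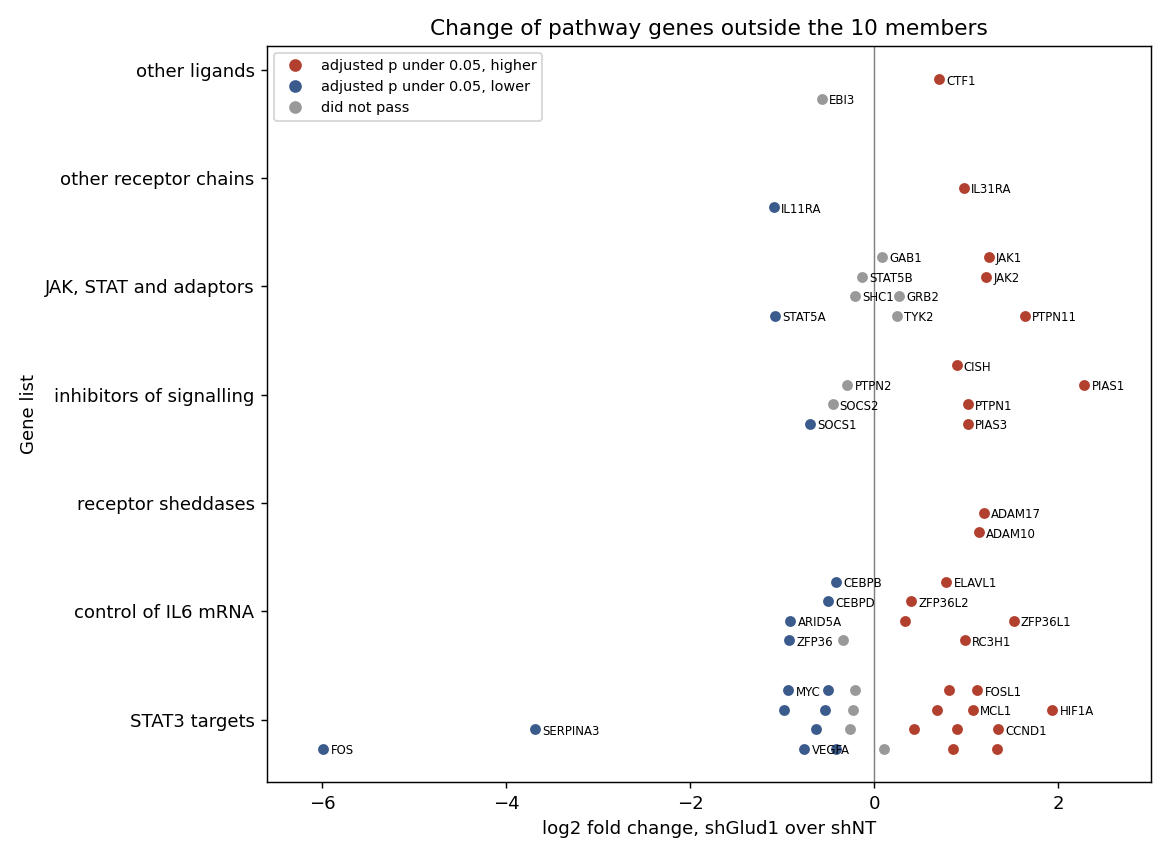
Log2 fold change, shGlud1 over shNT, of the tested genes of 7 pathway lists that are reported here, coloured by call at an adjusted p of 0.05 in edgeR's test. JAK1, JAK2 and PTPN11 lie above 1, and IL11RA and STAT5A lie below -1.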

How the data were processed

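Poly-A RNA was enriched from 1 µg of input and prepared with TruSeq V2 reagents, a chemistry that keeps no strand information, using 12 PCR cycles, and read in pairs of 150 nt, per the labels' protocols. The authors deposited expected counts for each gene (fractions of a read can be assigned), and 20.1% of values above 0 were not whole. The submitters' processing notes name Bowtie 0.12.2 and the mouse build mm8, whereas all 57820 rows carry human gene IDs. Which program counted reads, and on which annotation, is not given in the sources used here. Without molecular identifiers, counting intervals and limits cover counting error only.

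Expected counts were rounded and tested in edgeR 4.0.16 (R 4.3.3) with filterByExpr (minimum count 10), TMM factors (1.15 and 1.24 for shGlud1, 0.826 and 0.845 for shNT) and the robust quasi-likelihood test without a block. P-values were adjusted by Benjamini-Hochberg over all 14616 genes, with 0.05 as threshold. For 13904 of them the fit pooled the spread over all genes, which makes p-values small despite n = 2. SE is the absolute log2 fold change over the square root of F, and 95% intervals are normal intervals from it. For a single value, the smallest exact two-sided permutation p with 2 against 2 libraries is 0.333, so none is given. Libraries of a group differed by more than sampling noise (chi-square per degree of freedom 15.1 in shGlud1 and 5.99 in shNT). The script was tested on simulated data. Lengths are of the longest transcript in GENCODE 29, which 97.6% of tested genes have, and positions are on GRCh38. Overlaps were read from the same annotation. Figures and library checks used Python 3.11.15, pandas 2.3.3, numpy 2.4.6, scipy 1.17.1 and matplotlib 3.10.9.

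Alternatives were DESeq2 1.42.0, limma-voom (limma 3.58.1), upper-quartile and RLE factors, scaling by total counts, no low-count filter, a filter of 1 CPM in 2 libraries, a replicate block, leaving out each library, and removal of a lowess trend (span 0.3) of each library's log2 ratio on length. Where a group kept 1 library, that library was assumed to vary like the others. The members and lists, and the motif letters, were chosen with earlier results of these data known. Named genes were all members, up to 4 called genes a list in each direction by lowest p, the 5 genes nearest to IL6, and GLUD1. Overlapping genes, markers, OSM and CNTFR were named after their values were seen. Some genes of the lists are counted in the totals and are not reported here by name or in figures.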

Additional observations from a re-analysis of the deposited data

How the results depend on the processing

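IL6 and IL11 were called lower and STAT3 higher in all 13 alternatives run. The count of members called lower (4) moved to 2 under total counts, and the count called higher (1) moved to 4, since LIF, IL6ST and LIFR joined STAT3. Under the other alternatives 3 to 5 were called lower and 1 higher. Leaving out each library in turn gave 3 to 4 lower members and 7047 to 8765 called genes among all tested, against 8919. Total counts also reversed LIF (0.49), IL6ST (0.48), SOCS3 (0.22), CEBPB (0.10) and CEBPD (0.018). With no filter on low counts LIF (0.023) and IL6ST (0.0029) were reversed within their error, and with the length trend removed LIFR was (-0.26). Leaving out single libraries put LIF between -0.057 and 0.0012 and IL6ST between -0.26 and 0.21. For SOCS3 the calls of RLE factors and of the 1 CPM filter, and for IL6ST that of the length correction, are given above. The cause was not tested. The numbers 1 and 2 pair libraries by label only. The deviations of same-numbered libraries had a correlation of 0.04 over genes. With the replicate block 9046 genes were called, and SOCS3 was called lower (-0.30, adjusted p = 0.0395), while no other member's call changed. LIFR, OSMR, SOCS1 and CISH rest on few reads, so changes in them were harder to detect at this depth. PIAS1 (20 and 14 counts in shNT), JAK2 (31 and 27) and RC3H1 (16 and 33) were called but also rest on few control reads. The sizes of their rises are therefore less certain.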
